A study of Mus musculus with 14 samples.

Results

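The 10 genes described here move iron across membranes, reduce or oxidise it, store it, or control its release. They are the reductase family Steap1, Steap2, Steap3 and Steap4, the uptake and endosomal transport genes Tfrc and Slc11a1, the exporter Slc40a1 with its hormone Hamp and the oxidase Cp, and the storage gene Fth1. They were chosen by name, with the levels of these same arrays in view. Their levels and fitted differences in the 3 groups are therefore given as a description, and no p-value is drawn from them. The array holds 15 probes for the 10 genes, of 55482 probes and 20614 named genes in all, and 9 of the 10 genes had a probe bright enough for the fit.

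Ventricle was taken from male C57BL/6 mice operated on at 8 weeks of age. The groups were MI 14 days (5 arrays), MI 3 days (5 arrays) and sham (4 arrays). In both MI groups the left anterior descending coronary artery was tied off for good, which causes a myocardial infarction (MI), and the tissue was the border zone, taken 14 or 3 days later. Sham mice had the same operation without the ligation. The design text speaks of 10 ligated and 5 sham-operated mice, it gives no separate time for the sham hearts, and the labels do not say whether an array holds tissue of a single mouse, so p-values measure the spread between these arrays only. Levels are log2 of the Cy3 intensity minus the array's 75th percentile, so that 0 is the 75th percentile of the array. A difference is a fitted difference of such levels ± its standard error (SE), and group means are given ± SD. A difference between the times is MI 14 days minus MI 3 days. The threshold was an adjusted p under 0.05 from limma over all 32257 tested probes, with no minimum fold.

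Cells take up iron mainly as transferrin bound to the transferrin receptor. In the acidic endosome the iron is released in its ferric form and must be reduced to ferrous iron before a carrier of the Slc11 family can move it into the cytosol, and the Steap proteins are membrane reductases that do this with electrons from NADPH. Iron that is not used is oxidised and stored inside ferritin shells, or leaves the cell through ferroportin, which the liver hormone hepcidin closes. Iron regulatory proteins bind hairpins in the mRNAs of ferritin, ferroportin and the transferrin receptor. For ferritin and ferroportin, protein can therefore change without a change in mRNA. In damaged tissue macrophages take up dead cells and red cells and handle the iron set free from haem.

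At 3 days after MI, Steap1 and Steap2 stood far above sham, Slc11a1 was higher too, and Steap4, Cp and Fth1 were lower on every array than on any sham array. At 14 days Steap2 was still above sham on every array, Steap4 and Cp overlapped the sham arrays, Steap3 was higher than in sham and Slc40a1 and Fth1 were lower. Of the 9 genes in the fit, 3 were higher and 2 lower past the threshold in MI 14 days against sham, where 12.8% of all tested probes were higher and 19.8% lower. In MI 3 days against sham 3 were higher and 4 lower, with 25.5% of all probes higher and 39.7% lower. In MI 14 days against MI 3 days 3 were higher and 3 lower, with 32.7% of all probes higher and 22.9% lower. Since these contrasts chose the genes, the counts describe the fit, nothing is read from them, and single genes among the 9 are given below without a call.

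The median difference of the 9 genes was 0.14 in MI 14 days against sham, -0.30 in MI 3 days against sham and -0.09 in MI 14 days against MI 3 days. Over all tested probes the medians were -0.09, -0.19 and 0.13 in the same order of comparisons. The arrays did not overlap between the groups for 3 genes upward and 2 downward in MI 14 days against sham, where 10.3% and 17.2% of all tested probes did so. They did not overlap for 3 genes upward and 3 downward in MI 3 days against sham (all probes 22.6% and 34.1%), nor for 3 upward and 3 downward in MI 14 days against MI 3 days (all probes 21.2% and 18.8%). Both comparisons with sham share the 4 sham arrays.

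Steap1 differs from the other family members in lacking the part that binds NADPH, and it is known as a surface antigen of prostate epithelium. Its gene lies on mouse chromosome 5, as do Steap2 and Steap4, while Steap3 lies on chromosome 1. Its probe had log2 levels of -3.93, -4.24, -4.31, -3.43 and -3.59 on the MI 14 days arrays, of 1.21, 1.003, 1.68, 1.21 and 0.98 on the MI 3 days arrays, and of -5.65, -6.04, -6.15 and -4.03 on the sham arrays. All 5 arrays at 3 days were thus above every other array, while sham replicate 4 lay within the range of the MI 14 days arrays. The means were -3.90 ± 0.39 at 14 days, 1.22 ± 0.28 at 3 days and -5.47 ± 0.98 in sham (SD, n = 5, 5 and 4). The fitted difference was 1.57 ± 0.36 in MI 14 days against sham, 6.68 ± 0.36 in MI 3 days against sham and -5.12 ± 0.34 in MI 14 days against MI 3 days.

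The low end of this range is close to background, so no fold against sham is given. Scanner output, which flags probes well above background, was used for 10 arrays (the scanner arrays). Among them Steap1 was well above background on 3 of 4 at 14 days, on 2 of 2 at 3 days and on 1 of 4 in sham. It thus entered the fit through the MI 3 days arrays alone. Here and below, normexp and the slide as a block were fitted on the 10 scanner arrays only. With the processed signal of those arrays the difference was 1.65 in MI 14 days against sham and 6.56 in MI 3 days against sham. Normexp background correction, which pulls dim probes together, gave 0.28 at 14 days and 3.18 at 3 days. With the slide as a block the difference was 1.29 at 14 days and 6.39 at 3 days. Steap1 shows the widest gap between the times among the 9 genes, and its size, though not its direction, rests on how background is treated.

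The 250 bases before the start of Steap1 are shown because this gene has the widest range of levels here. The sequence is RefSeq's at chr5:5749318-5749567 on the minus strand (GRCm38.p6), and the capitals mark CAGTGN, the letters of the loop of an iron-responsive element.
Steap1: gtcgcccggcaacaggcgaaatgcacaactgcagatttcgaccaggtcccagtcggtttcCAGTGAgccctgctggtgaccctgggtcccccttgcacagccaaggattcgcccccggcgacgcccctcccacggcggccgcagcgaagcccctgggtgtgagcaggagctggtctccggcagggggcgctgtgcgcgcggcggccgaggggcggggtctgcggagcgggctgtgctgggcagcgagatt
The match begins 190 bases before the start. These letters occur in 48.4% of the 32851 promoter windows of the table. Here and below only the 250 bases before each start were searched, on both strands. An iron-responsive element works in RNA and needs a hairpin as well, so the match describes letters and no site.

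Steap2 reduces both iron and copper and cycles between the cell surface, the Golgi and endosomes. Its standing probe, the brightest of 3, had log2 levels of -2.10, -2.45, -1.26, -1.86 and -2.62 on the MI 14 days arrays, of 0.35, 0.06, 0.25, 0.05 and 0.14 on the MI 3 days arrays, and of -4.12, -3.90, -4.32 and -3.97 on the sham arrays. No array of any group overlapped those of another, and the 14-day arrays lay between the others. The means were -2.06 ± 0.54, 0.17 ± 0.13 and -4.07 ± 0.19 for MI 14 days, MI 3 days and sham. The differences were 2.01 ± 0.22 in MI 14 days against sham (4.04-fold), 4.24 ± 0.22 in MI 3 days against sham (18.9-fold) and -2.23 ± 0.20 in MI 14 days against MI 3 days.

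On the 10 scanner arrays the Steap2 differences from sham were 2.11 at 14 days and 4.17 at 3 days with the processed signal. Normexp correction reduced them to 0.71 at 14 days and 2.02 at 3 days. The probe was well above background on 4 of 4 scanner arrays at 14 days, 2 of 2 at 3 days and 3 of 4 in sham. The other Steap2 probes were dim and not tested. One averaged -5.95 at 14 days, -4.27 at 3 days and -5.75 in sham and was above background on 1 MI 3 days array and 1 sham array, while the other averaged -6.25, -6.71 and -6.47 in the same groups and was above background on none. The probe that averaged -4.27 at 3 days read higher on every MI 3 days array than on any MI 14 days array, but mostly at background. It overlapped sham at both times. The fitted differences of Steap2 are therefore those of a single probe.

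**Figure D1:**
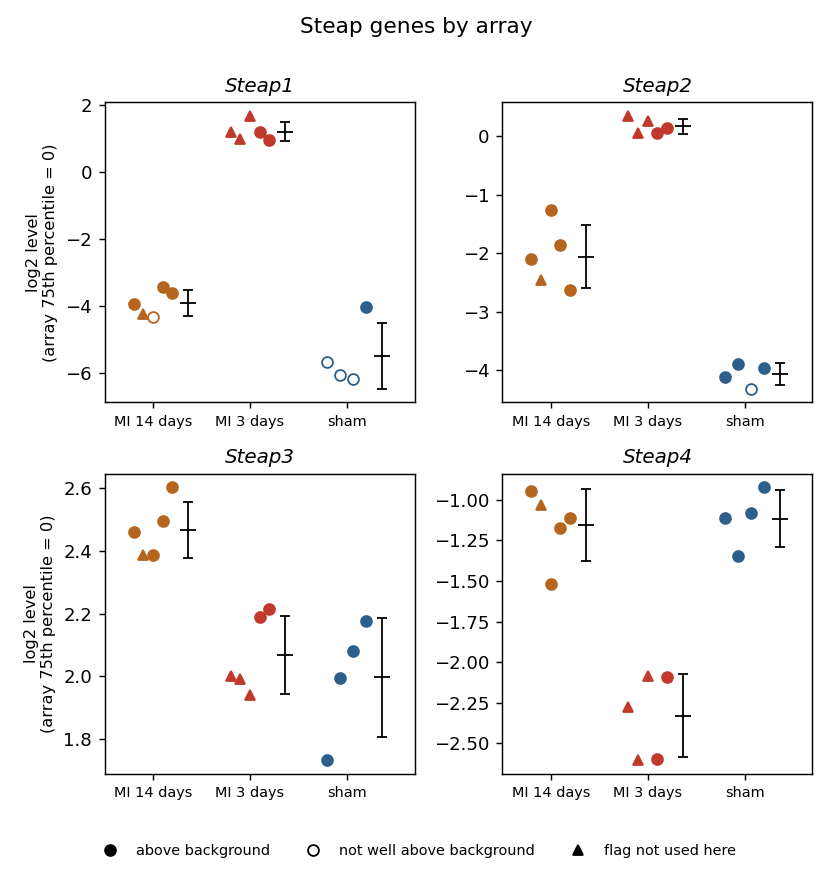
Log2 levels of the 4 Steap genes (y axis, array 75th percentile at 0) on each array of MI 14 days, MI 3 days and sham (x axis), with mean and SD beside the points. Filled circles are arrays where the probe was well above background, open circles where it was not, and triangles are arrays whose flags were not used here; Steap1 and Steap2 are highest at 3 days, Steap4 is lowest there, and Steap3 is highest at 14 days.

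Steap3 is the reductase of the transferrin cycle in red cell precursors. It had log2 levels of 2.46, 2.39, 2.39, 2.50 and 2.60 on the MI 14 days arrays, of 2.001, 1.99, 1.94, 2.19 and 2.21 on the MI 3 days arrays, and of 1.73, 1.995, 2.08 and 2.18 on the sham arrays. The 14-day arrays were above all others, and the 3-day and sham arrays overlapped. The differences were 0.47 ± 0.099 in MI 14 days against sham, 0.07 ± 0.099 in MI 3 days against sham and 0.40 ± 0.093 in MI 14 days against MI 3 days. On the 10 scanner arrays alone the last of these was smaller, at 0.29 with the processed signal, 0.21 with normexp and 0.32 with the slide as a block. A second, dimmer Steap3 probe averaged 0.49 at 14 days, 0.39 at 3 days and 0.34 in sham. Its difference was 0.15 ± 0.11 in MI 14 days against sham, so the 14-day difference above is that of the brighter probe.

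Steap4, a reductase of iron and copper known from fat tissue, liver and inflammation, ran the opposite way to Steap1 and Steap2. Its probe read log2 levels of -0.95, -1.03, -1.52, -1.17 and -1.11 on the MI 14 days arrays, -2.27, -2.60, -2.09, -2.59 and -2.09 on the MI 3 days arrays, and -1.11, -1.35, -1.08 and -0.92 on the sham arrays. The 3-day arrays were below all others, and the 14-day and sham arrays overlapped. The means were -1.15 ± 0.22 at 14 days, -2.33 ± 0.26 at 3 days and -1.12 ± 0.17 in sham. The differences were -0.04 ± 0.15 in MI 14 days against sham, -1.21 ± 0.15 in MI 3 days against sham, which is 2.32-fold lower, and 1.18 ± 0.14 in MI 14 days against MI 3 days. On the 10 scanner arrays the 3-day difference was -1.23 with the processed signal and -0.75 with normexp.

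The 250 bases before the start of Steap4 are shown beside those of Steap1 because the genes, both on chromosome 5, differed from sham in opposite directions at 3 days. They lie at chr5:7960222-7960471 on the plus strand (RefSeq, GRCm38.p6), and the capitals mark TTCNNNGAA, the letters bound by STAT factors.
Steap4: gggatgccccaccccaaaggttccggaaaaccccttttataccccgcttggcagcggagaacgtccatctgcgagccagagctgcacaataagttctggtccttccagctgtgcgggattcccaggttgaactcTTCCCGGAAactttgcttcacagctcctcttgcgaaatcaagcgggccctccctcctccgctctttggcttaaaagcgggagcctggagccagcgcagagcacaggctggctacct
The match, TTCCCGGAA, begins 116 bases before the start. Of the 32851 windows 7.02% hold the motif, Steap1's window holds none, and a window of Steap2, which like Steap1 was higher than sham at 3 days, holds one that begins 135 bases before its start. For the 10 genes the table held 17 windows of 9 genes, and the loop letters, the STAT letters and TGANTCA, the letters of AP-1, were searched in each. The search for STAT and AP-1 letters was added after the levels had been seen.

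Tfrc, the transferrin receptor that carries iron into most cells, was somewhat lower after MI, with much spread. Its standing probe had log2 levels of 2.45, 1.44, 1.35, 2.08 and 1.94 on the MI 14 days arrays, of 1.65, 1.73, 1.65, 2.20 and 1.73 on the MI 3 days arrays, and of 2.26, 2.06, 2.53 and 2.35 on the sham arrays. Both MI groups overlapped sham, at 14 days through replicate 1, at 3 days through replicate 4. The differences were -0.45 ± 0.21 in MI 14 days against sham, -0.51 ± 0.21 in MI 3 days against sham and 0.06 ± 0.19 between the times. The 3-day difference was -0.45 with quantile normalization and -0.28 as the mean of all Tfrc probes. On the 10 scanner arrays it was -0.34 with the processed signal and -0.23 with normexp. Without MI 14 days replicate 1 the 14-day difference was -0.60.

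The other Tfrc probes differed less from sham, relative to their SE. One averaged 0.95 ± 0.89 at 14 days, 1.11 ± 0.37 at 3 days and 1.45 ± 0.14 in sham. The last and dimmest averaged -2.62 ± 0.61, -2.37 ± 0.21 and -2.40 ± 0.48 in the same groups, with means closer together than the SD at 14 days.

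Slc11a1 encodes the metal carrier of phagosomes in macrophages and neutrophils. C57BL/6 mice are known to carry an allele of it whose protein does not work, so the mRNA here reports expression of the gene and not transport. Its log2 levels were 0.45, 0.27, 1.07, 0.42 and 0.18 on the MI 14 days arrays, 2.53, 2.55, 3.70, 2.72 and 2.68 on the MI 3 days arrays, and 0.15, -0.11, 0.16 and 0.13 on the sham arrays. Each MI group was above sham without overlap, by a wide gap at 3 days and a narrow gap at 14 days. The differences were 0.39 ± 0.23 in MI 14 days against sham, 2.76 ± 0.23 in MI 3 days against sham (6.75-fold) and -2.36 ± 0.22 in MI 14 days against MI 3 days.

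Slc40a1 is ferroportin, the only known iron exporter of mammalian cells. It had log2 levels of 0.65, 0.74, 0.01, 0.49 and 0.60 on the MI 14 days arrays, of 0.67, 0.66, 0.62, 0.93 and 1.35 on the MI 3 days arrays, and of 1.20, 1.23, 1.40 and 1.12 on the sham arrays. The 14-day arrays were all below sham, while MI 3 days replicate 5 lay among the sham arrays. The differences were -0.74 ± 0.17 in MI 14 days against sham, -0.39 ± 0.17 in MI 3 days against sham and -0.35 ± 0.16 between the times.

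The 3-day value of Slc40a1 turned on which arrays were used. Without MI 3 days replicate 5 it was -0.52. On the 10 scanner arrays, which hold 2 of the 5 MI 3 days arrays and replicate 5 among them, it was -0.10 with the processed signal, -0.01 with normexp and -0.05 with the slide as a block. There the difference between the times was -0.70 with the processed signal and -0.75 with normexp.

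Hamp encodes hepcidin, the peptide hormone that closes ferroportin; it is made mainly by the liver, where BMP signals and STAT3 drive it, and the heart makes some of its own. Its probe was too dim for the fit: it was well above background on 0 of 4 scanner arrays at 14 days, 0 of 2 at 3 days and 2 of 4 in sham. The log2 levels read -6.48, -6.21, -6.02, -6.39 and -5.70 on the MI 14 days arrays, -6.28, -6.46, -6.04, -6.30 and -7.27 on the MI 3 days arrays, and -4.14, -3.74, -5.45 and -4.18 on the sham arrays. Apart from sham replicates 1 and 2, these are background readings or arrays whose flags were not used here. All sham readings lay above those of both MI groups, but readings at background are not taken as levels, and no fold is given. The mouse has a close copy, Hamp2, and whether this probe tells them apart was not tested.

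The 250 bases before the start of Hamp, shown because STAT control of this gene is textbook knowledge, lie at chr7:30944030-30944279 on the minus strand (RefSeq, GRCm38.p6).
Hamp: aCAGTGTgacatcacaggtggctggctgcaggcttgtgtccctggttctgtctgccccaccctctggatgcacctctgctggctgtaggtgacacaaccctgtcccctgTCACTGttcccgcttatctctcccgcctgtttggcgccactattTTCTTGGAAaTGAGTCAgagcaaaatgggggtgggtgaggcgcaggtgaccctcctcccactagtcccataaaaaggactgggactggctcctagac
The capitals mark the loop letters beginning 249 bases before the start and, on the other strand, at 141. Closer to the start they mark the STAT letters at 97 and the AP-1 letters at 87. The AP-1 letters occur in 6.75% of the windows. Neither match says that a factor was bound in these hearts.

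Cp, ceruloplasmin, is the copper oxidase that loads exported iron onto transferrin. Cp levels (log2) were 3.45, 3.44, 3.63, 3.37 and 3.32 on the MI 14 days arrays, 2.82, 2.56, 2.67, 2.46 and 2.59 on the MI 3 days arrays, and 3.45, 3.28, 3.46 and 3.02 on the sham arrays. The 3-day arrays were below all others, and the 14-day and sham arrays overlapped. The differences were 0.14 ± 0.11 in MI 14 days against sham, -0.68 ± 0.11 in MI 3 days against sham and 0.82 ± 0.10 in MI 14 days against MI 3 days. In its order of groups Cp resembled Steap4, with a dip at 3 days alone.

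Fth1 is the heavy chain of ferritin, which oxidises iron as it enters the shell. It had log2 levels of 8.55, 8.59, 8.58, 8.57 and 8.88 on the MI 14 days arrays, of 8.71, 8.63, 8.87, 8.67 and 8.73 on the MI 3 days arrays, and of 9.01, 9.03, 8.99 and 9.09 on the sham arrays. All MI arrays were below all sham arrays, and the MI groups overlapped each other. The differences were -0.40 ± 0.083 in MI 14 days against sham, -0.30 ± 0.083 in MI 3 days against sham and -0.09 ± 0.078 between the times.

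The Fth1 differences are small and depend on the scaling. Under quantile normalization the 3-day difference turned to 0.17 and the 14-day difference was -0.20, while the difference between the times became -0.37. On the 10 scanner arrays the differences from sham were -0.39 at 14 days and -0.33 at 3 days with the processed signal. With normexp they were -0.27 at 14 days and -0.10 at 3 days. Fth1 has near-identical pseudogene copies, so its probe may read more than a single locus.

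**Figure D2:**
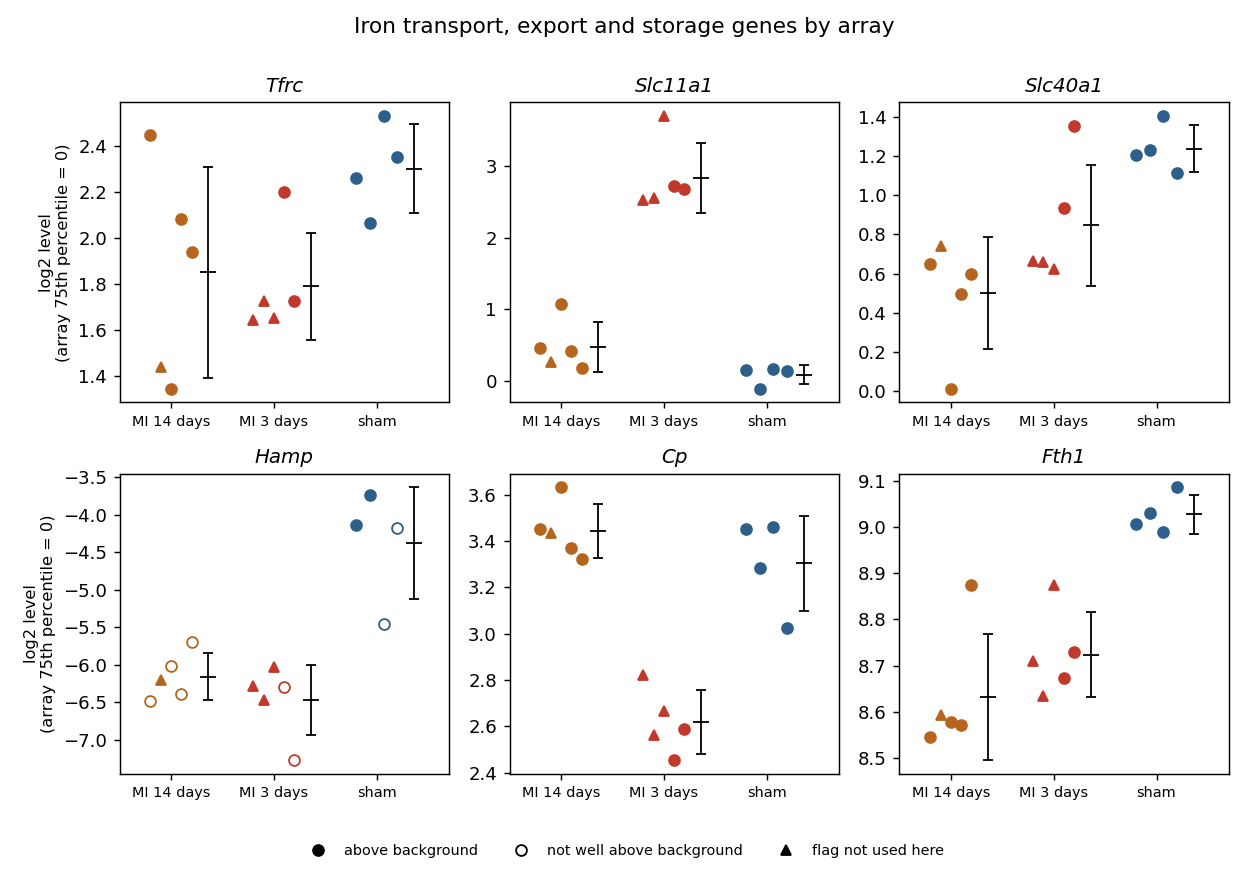
Log2 levels of Tfrc, Slc11a1, Slc40a1, Hamp, Cp and Fth1 (y axis, array 75th percentile at 0) on each array of MI 14 days, MI 3 days and sham (x axis), with mean and SD beside the points. Symbols mark the background flag (open circles: not well above background); Slc11a1 is highest at 3 days, Cp is lowest there, and Fth1 is lower on all MI arrays than on all sham arrays.

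Slides could be read for 10 arrays. On slide 1 were sham replicates 1 and 2 and MI 14 days replicate 1, on slide 2 sham replicate 3 and MI 3 days replicate 4, and on slide 3 sham replicate 4, MI 3 days replicate 5 and MI 14 days replicates 3, 4 and 5. Within slides, Steap2 was higher by 1.91 and 2.05 in MI 14 days against sham (slides 1 and 3) and by 4.37 and 4.10 in MI 3 days against sham (slides 2 and 3). Steap1 was higher by 1.91 and 0.25, and by 7.36 and 5.01, in the same comparisons and slides. Slc11a1 differed by 0.43 on both slides at 14 days and by 2.56 and 2.55 at 3 days.

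Among the lower genes, Steap4 differed from sham by -1.51 and -1.17 at 3 days (slides 2 and 3), Cp by -1.01 and -0.43, and Fth1 by -0.32 and -0.36. The sign within a slide departed from the pooled one in 3 cases. Steap4 was 0.28 higher on slide 1 at 14 days, Tfrc was 0.29 higher there, and Slc40a1 was 0.24 higher on slide 3 at 3 days. The first and second of these rest on MI 14 days replicate 1 and the third on MI 3 days replicate 5.

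**Figure D3:**
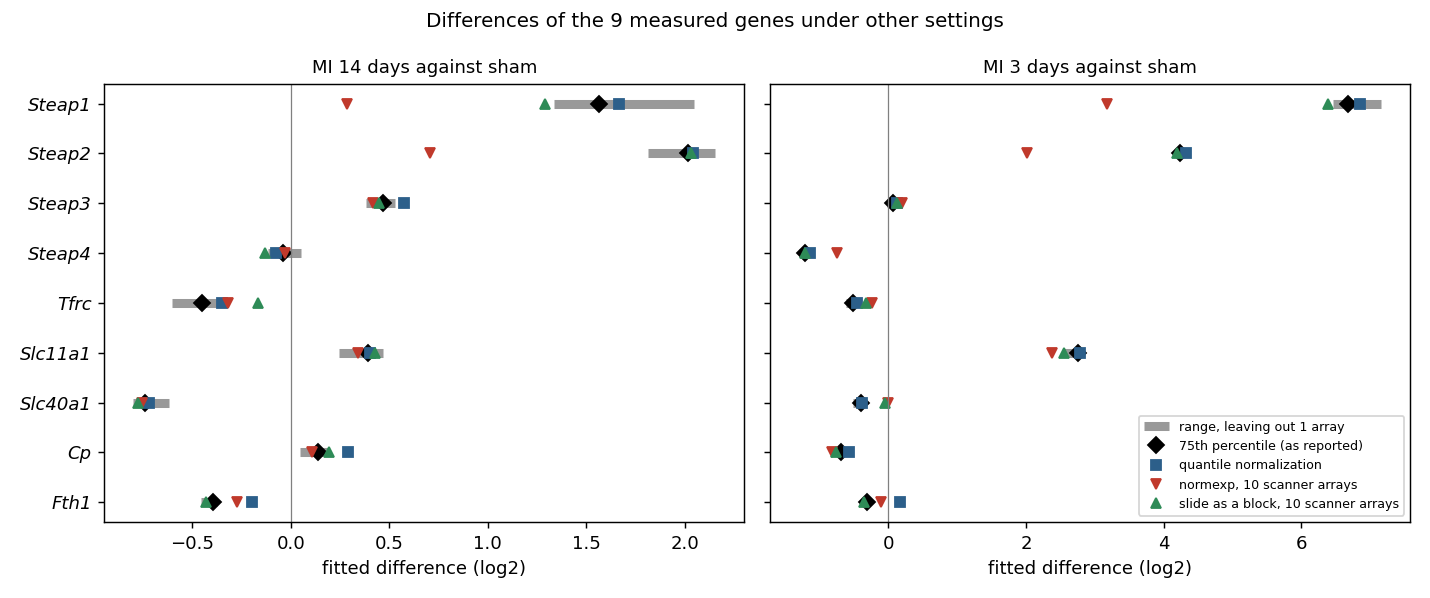
Fitted log2 differences (x axis) of the 9 genes in the fit (y axis) in MI 14 days against sham (left) and MI 3 days against sham (right), as reported, under quantile normalization, with normexp, with the slide as a block, and as a range over fits that leave out 1 array. Steap1 and Steap2 shrink most with normexp (to 3.18 and 2.02 at 3 days), and Fth1 changes sign at 3 days under quantile normalization (0.17).

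The other genes of iron and haem handling were taken from a list of 66 symbols, of which 63 had a named probe and 59 were tested. In MI 3 days against sham 18 rose, 31 fell and 10 did not pass, with a median difference of -0.39. In MI 14 days against sham 7 rose, 29 fell and 23 did not pass (median -0.34), and in MI 14 days against MI 3 days 25 rose, 15 fell and 19 did not pass (median 0.16, with a mean of -0.06). A fit of the 10 scanner arrays that took the slide as a block had 16 genes past the threshold in MI 14 days against sham, where 36 are reported, and 21 between the times, where 40 are reported. Of all tested probes, 25.5% rose and 39.7% fell in MI 3 days against sham. In MI 14 days against sham 12.8% rose and 19.8% fell, and between the times 32.7% rose and 22.9% fell. These shares, with the medians given above, are the background to these counts and to those by list and marker below. Cybrd1, Ltf, Ftmt and Hpx were dim.

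All 4 tested reductases outside the Steap family rose at 3 days, with a median difference of 0.77. At 14 days 2 of the 4 rose against sham (median 0.46), and 2 fell against 3 days (median -0.46). Frrs1, a ferric reductase of the cytochrome b561 group, averaged -2.40 at 14 days, -0.48 at 3 days and -2.89 in sham. It rose by 2.41 ± 0.22 in MI 3 days against sham (limma, adjusted p = 4.13e-07) and differed by -1.92 ± 0.21 between the times (adjusted p = 4.20e-06). Over 25 settings its 3-day difference ran from 1.05 to 2.62. Cyb561d2, of the same group, rose by 1.03 ± 0.09 at 3 days (adjusted p = 2.39e-07) and by 0.47 ± 0.09 at 14 days (adjusted p = 0.00131). So Steap4, among the reductases that could be tested, is the one with a lower level at 3 days.

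Of 7 tested uptake and carrier genes, 2 rose and 2 fell at 3 days (median -0.12), 1 rose and 3 fell at 14 days (median -0.28), and 3 rose and 2 fell between the times (median 0.30, mean -0.02). Lcn2, the secreted lipocalin that binds bacterial iron carriers and is abundant in neutrophils, averaged 0.77 at 14 days, 4.03 at 3 days and 1.11 in sham. It rose by 2.92 ± 0.27 in MI 3 days against sham (limma, adjusted p = 5.26e-07). Scara5, a ferritin receptor, fell by 2.81 ± 0.24 at 3 days (adjusted p = 2.72e-07) and by 0.95 ± 0.24 at 14 days (adjusted p = 0.00883), where the call ended for the mean of all its probes (-0.55). Tfr2, a transferrin receptor that senses iron, rose by 1.83 ± 0.26 at 14 days (adjusted p = 0.00023), being above background on 4 of 4 scanner arrays there and on 2 of 4 in sham.

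Of 5 tested export and storage genes, 1 rose and 2 fell at 3 days (median 0.12), and 2 rose and 2 fell at 14 days (median -0.18, mean 0.07). Ftl1, the light chain of ferritin, averaged 8.03 at 14 days, 9.01 at 3 days and 7.43 in sham. It rose by 1.58 ± 0.11 in MI 3 days against sham (limma, adjusted p = 5.89e-08) and by 0.60 ± 0.11 in MI 14 days against sham (adjusted p = 0.00165). Fth1 was lower in both as scaled here, but at 3 days its difference was 0.17 under quantile normalization. Ncoa4, the receptor that sends ferritin to the lysosome, fell by 0.52 ± 0.09 at 3 days (adjusted p = 0.000242). Heph, a membrane-bound relative of Cp, rose by 0.62 ± 0.13 at 14 days (adjusted p = 0.00273), a call that ended with the slide as a block (0.53) and as a mean of its probes (0.20). Pcbp1, which hands iron to ferritin, differed by -0.31 ± 0.07 between the times (adjusted p = 0.00138).

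Genes that sense iron or control hepcidin split. Of 10 tested, 4 rose and 5 fell at 3 days (median -0.49), 2 fell and 8 did not pass at 14 days (median -0.27), and 3 rose and 4 fell between the times (median 0.14, mean -0.13). Bmp2, a ligand that induces hepcidin in the liver, averaged -1.66 at 14 days, 0.58 at 3 days and -2.06 in sham, a rise of 2.63 ± 0.23 in MI 3 days against sham (limma, adjusted p = 3.53e-07). Over 25 settings this rise ran from 1.49 to 2.79. Hjv, the BMP co-receptor of muscle and liver, fell by 1.64 ± 0.21 at 3 days (adjusted p = 1.21e-05) and by 0.98 ± 0.21 at 14 days (adjusted p = 0.00346). With the slide as a block the 14-day call of Hjv ended (-0.83), as did that of Hfe, the haemochromatosis protein (-0.45 ± 0.11, adjusted p = 0.00657, against -0.42 with the block and -0.31 with normexp). Fbxl5, the iron-sensing part of a ubiquitin ligase, differed by -0.94 ± 0.20 between the times (adjusted p = 0.00113), and by -0.52 with the slide as a block, where the call ended.

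Haem breakdown and scavenging genes rose at 3 days in 7 of 10 cases and fell in 2 (median 0.47). At 14 days 2 rose and 3 fell against sham (median -0.12, mean 0.09), and 1 rose and 5 fell against 3 days (median -0.58). Hmox1, the inducible oxygenase that frees iron from haem, averaged 1.23 at 14 days, 5.80 at 3 days and 0.88 in sham. It rose by 4.92 ± 0.17 in MI 3 days against sham (limma, adjusted p = 3.93e-10) and differed by -4.56 ± 0.16 between the times (adjusted p = 9.53e-10). Hp, haptoglobin, which binds free haemoglobin, rose by 3.096 ± 0.51 at 3 days (adjusted p = 0.000114) and by 2.38 ± 0.51 at 14 days (adjusted p = 0.00329), the 14-day call ending with the slide as a block (1.91). Cd163, the macrophage receptor for haptoglobin-bound haemoglobin and also a resident macrophage marker, was above background on 0 of 4 scanner arrays at 14 days. As scaled here it was at least 2.17-fold lower there than in sham (limma, adjusted p = 0.00817). This bound does not hold with normexp, where the difference was -0.19 and the call ended. Flvcr2, of the haem carrier family, differed by 1.27 ± 0.20 between the times (adjusted p = 0.000127).

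Haem synthesis and the iron-sulphur machinery of mitochondria fell almost throughout. Of the 9 enzymes of haem synthesis, 8 fell at 3 days (median -1.08) and 8 at 14 days (median -0.56), and 6 rose between the times (median 0.38). Alas2, the red cell enzyme, did not pass in any comparison. Alas1, the first enzyme in other tissues, averaged 6.54 at 14 days, 5.68 at 3 days and 7.23 in sham, and fell by 1.55 ± 0.13 in MI 3 days against sham (limma, adjusted p = 2.09e-07). Uros fell by 1.43 ± 0.10 at 3 days (adjusted p = 6.50e-08). Urod fell by 0.86 ± 0.25 at 14 days (adjusted p = 0.0171), a call that ended with the slide as a block (-0.91) and in a fit of these groups alone (adjusted p = 0.053).

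Of 14 mitochondrial iron genes, 12 fell at 3 days (median -1.10) and 11 at 14 days (median -0.56), and 11 rose between the times (median 0.52). Isca1, an iron-sulphur assembly factor, averaged 4.45 at 14 days, 3.65 at 3 days and 5.01 in sham, and fell by 1.37 ± 0.13 in MI 3 days against sham (limma, adjusted p = 9.35e-07). Fdx1, a mitochondrial ferredoxin, fell by 1.31 ± 0.12 at 3 days (adjusted p = 3.58e-07) and by 0.69 ± 0.12 at 14 days (adjusted p = 0.000749). Abcb8 fell by 0.73 ± 0.15 at 14 days (adjusted p = 0.00229), a call that ended once the slide was a block (-0.69). Cisd1 rose by 0.73 ± 0.10 between the times (adjusted p = 2.96e-05).

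**Figure D4:**
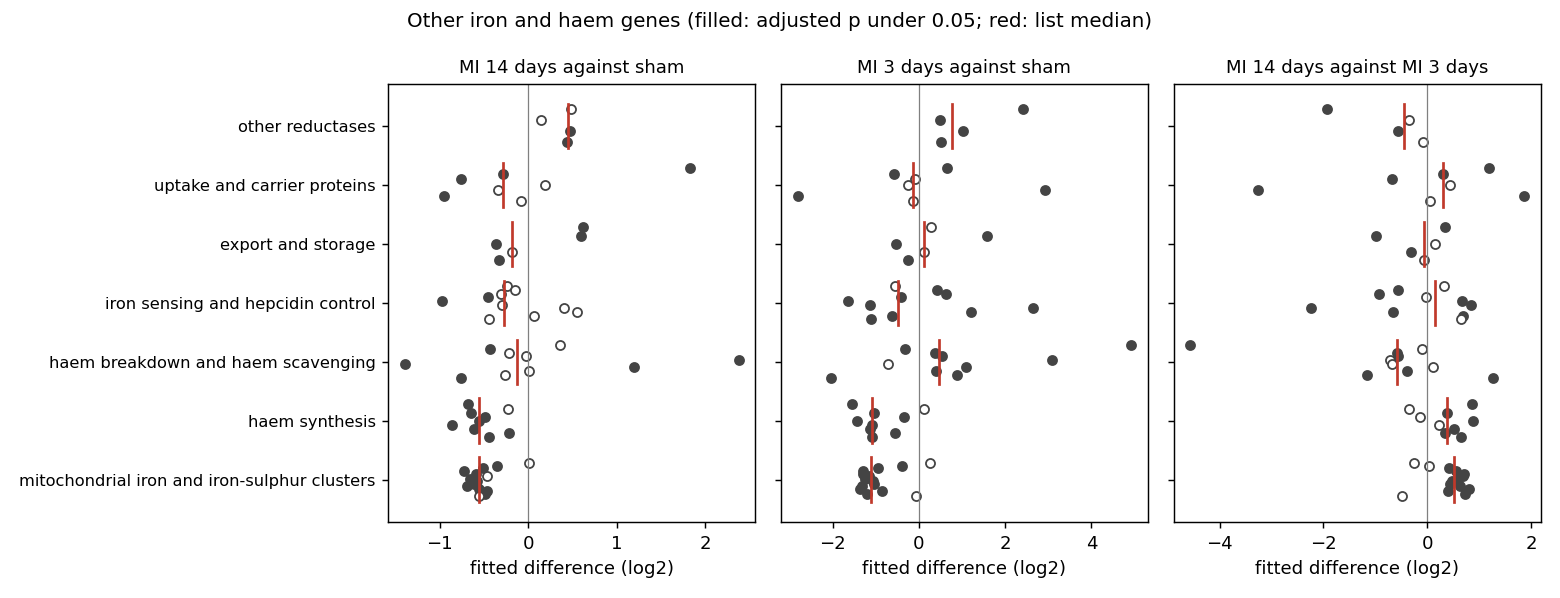
Fitted log2 differences (x axis) of the 59 tested genes outside the 10, by list (y axis), in MI 14 days against sham, MI 3 days against sham and MI 14 days against MI 3 days. Filled points passed an adjusted p under 0.05 and red bars are list medians; haem synthesis and mitochondrial genes lie to the left in both comparisons with sham (medians -0.56 and -0.56 at 14 days, -1.08 and -1.10 at 3 days) and to the right between the times.

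Markers of several cell types moved with these results, and their part in them was not tested. In bulk tissue, fewer cells of a type and less RNA per cell cannot be told apart. The mean log2 level over 8 tested monocyte and macrophage markers was 1.99 to 2.44 on MI 14 days arrays, 3.23 to 3.92 on MI 3 days arrays and 1.47 to 1.73 on sham arrays, with 7 of 8 rising at 3 days. Over 6 neutrophil markers it was -1.57 to 0.01, 1.81 to 3.21 and -0.81 to -0.15 in the same order, with 5 of 6 rising at 3 days and the defining marker Ngp dim. Over 6 proliferation markers it was -2.91 to -1.30, 1.38 to 1.84 and -3.76 to -2.16, with 6 of 6 rising at 3 days. Mmp8 and Cxcr2 of the neutrophil list and Top2a and Bub1 of the proliferation list entered the fit only through the MI 3 days scanner arrays. That filter by itself favours markers that are higher at 3 days. Steap1, Steap2 and Slc11a1 were highest in the group where these 3 lists were highest. Over 7 fibroblast markers the mean level was 4.87 to 5.54, 4.48 to 4.99 and 3.36 to 3.48 in the same order. At 14 days 7 of 7 rose against sham, and at 3 days 5 rose and 1 fell. Between the times 2 rose and 5 did not pass. Steap3, Tfr2 and Heph were highest at 14 days. The summed signal (log2) did not separate the groups for the macrophage and neutrophil lists, with 7.59 to 7.79, 7.42 to 7.81 and 7.41 to 7.81 for the macrophage list and 7.74 to 7.90, 7.58 to 8.09 and 7.70 to 7.83 for the neutrophil list. The bright probes of Itgam and Csf3r dominate these sums and fell at 3 days. Of 5 resident macrophage markers, 2 fell and 0 rose in each comparison with sham. Their mean levels, in the same order, were -1.71 to -0.90, -1.77 to -0.88 and -0.95 to -0.65. Of 6 endothelial markers, 1 rose and 2 fell at 3 days, and 1 fell at 14 days. Of 6 lymphocyte markers, 1 rose and 1 fell at 3 days, and 1 rose at 14 days.

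Over 8 cardiomyocyte markers the mean level was 8.12 to 8.65 on MI 14 days arrays, 7.27 to 7.59 on MI 3 days arrays and 8.59 to 8.78 on sham arrays, and the summed signal 12.13 to 12.63, 11.41 to 11.64 and 12.18 to 12.51. All 8 fell at 3 days, beside Steap4, Cp and the haem synthesis and mitochondrial lists, and 4 of 8 at 14 days. The 5 tested erythroid markers had mean levels that overlapped between all groups, at 4.79 to 6.24, 4.93 to 6.60 and 5.22 to 5.45. Hepatocyte markers, of interest for Hamp and Cp, had Alb, Apoa1 and Fgb dim. Of the other 3, 2 fell at 3 days, and their mean level was -0.98 to -0.44, -1.97 to -0.94 and -0.94 to -0.69 in the same order.

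Genes whose levels ran most like each of the 9 were found by the root-mean-square distance between levels centred on each gene's mean, over the 14 arrays and 14867 genes. Nearest to Steap1 were Adam8 (0.57), AA467197 (0.58) and Mmp8 (0.76), and nearest to Steap2 were Acp5 (0.25), Slc16a3 (0.26) and Star (0.27). Slc11a1 had Tlr13 (0.18), Alox5ap (0.20) and Itgb2 (0.20). None of the genes nearest to any of the 9 was itself among the 10. Steap3 had Prkd2 (0.12), 2310022B05Rik (0.13) and Mfap1b (0.14), Steap4 had Endou (0.16), 3425401B19Rik (0.16) and Aptx (0.17), and Cp had Plpp3 (0.11), Wdsub1 (0.11) and Bicral (0.12). Tfrc had Nbr1 (0.18), Zswim1 (0.19) and Denr (0.21), Slc40a1 had Nqo2 (0.17), Atl2 (0.19) and Ppil1 (0.20), and Fth1 had Sf3b2 (0.078), Psmg1 (0.079) and Afg3l1 (0.082). A smaller distance here partly reflects a smaller range of levels, so distances are not to be set against each other between the 9 genes.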

How the data were processed

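RNA of 14 samples was hybridised to 1-colour Agilent mouse arrays, and the labels name both poly-T purification and 200 ng of total RNA. The value table deposited by the authors gives each probe a single linear Cy3 intensity on each array, with no scaling between arrays (75th percentiles 189 to 443). The scanner intensity files deposited for 10 of the arrays were made with Feature Extraction 10.7.3.1, per the file headers, and 100% of probes with a single spot had the value of the table (tolerance 1e-05). The submitters' processing notes name limma without a role.

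Log2 of the deposited intensity minus each array's 75th percentile was fitted in limma 3.58.1 (R 4.3.3; lmFit, contrasts.fit, eBayes, two-sided, 3 groups together), with Benjamini-Hochberg adjustment over tested probes. A probe entered the fit where, in some group, all scanner arrays had it well above background (32257 probes, 14867 genes). On the scanner arrays 54.8% to 66.1% of probes were well above background, no spot was saturated. Precision is limited by how many arrays there are. The scanner files carry no gene symbols, so probes were named by RefSeq accession through a mouse gene table on GRCm38.p6 (27144 of 55482 probes). The brightest tested probe stands for a gene. Where a probe was above background on no array of a group, a bound sets the brighter group's mean against a floor per array, the higher of the lowest signal above background and the probe's own. The normexp alternative (offset 50) used median signals, since mean signals are not among the columns used here. Other alternatives were the processed scanner signal, quantile scaling, other filters, all probes of a gene, each array left out, the slide and the replicate number as a block. The fit was tested on simulated data.

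The genes and lists were chosen with earlier results of these data known. Named among the other iron genes are, per list and comparison, the 2 past the threshold with the largest differences whose arrays do not overlap. The planned comparison of Steap protein sequences was not made, as proteins were not used here. Pairs of arrays with the same replicate number correlated between -0.13 and 0.22, so the numbers were not taken as pairs.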

Additional observations from a re-analysis of the deposited data

Results flagged for a closer look

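In the direct comparison of MI 14 days with MI 3 days, 3 of the 9 genes were higher and 3 lower past the threshold. Of all tested probes, 32.7% were higher and 22.9% lower in that comparison. The counts are a description here because these levels chose the genes, so all 9 differences follow without a call. The difference was -5.12 for Steap1, -2.23 for Steap2, 0.40 for Steap3, 1.18 for Steap4, -2.36 for Slc11a1 and 0.82 for Cp. For Tfrc it was 0.06, for Slc40a1 -0.35 and for Fth1 -0.09. On the 10 scanner arrays that of Steap3 was 0.29.

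Single arrays stood apart from their group in 4 cases. Slc11a1 was at 3.70 on MI 3 days replicate 3, and at -0.11 on sham replicate 2. Tfrc was at 2.20 on MI 3 days replicate 4. Fth1 was at 8.88 on MI 14 days replicate 5. Each array lay farther from its nearest neighbour, relative to the range of its group, than Dixon's critical value at the 95% level allows, which chance brings about in roughly 1 of 20 groups.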

How the results depend on the processing

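Most results under other settings stayed near those reported. Of the 687 values of the 9 genes, 629 kept their direction and their side of the threshold. Values within slides were counted in where they differed from the pooled one by less than the SD of the first-named group. The named iron genes kept both in 970 of 982 values, but they had been chosen for large differences past the threshold. In both counts some settings could not change a difference, such as another probe filter or leaving out an array of the group not compared. Direction was fixed in advance there, so both counts overstate how stable the differences are. Of 216 counts, 207 stayed of a size like that reported, which says nothing of direction. With the slide as a block on 10 arrays, probes past the threshold numbered 5075 (10489 as reported) in MI 14 days against sham and 9127 (17945) in MI 14 days against MI 3 days, and other iron genes 16 (36) and 21 (40). With normexp on the same 10 arrays the second comparison had 10625 probes and 26 other iron genes, and with their processed signal 26 such genes. Of the 9 genes, 3 (5 as reported) passed in MI 14 days against sham with normexp, and 3 when probes had to be above background on every scanner array, which leaves fewer genes to test. Apart from that last, the cause was not tested.

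Leaving out 1 array gave 8721 to 10793 probes in MI 14 days against sham, 19789 to 21443 in MI 3 days against sham and 16507 to 18323 between the times. For the 9 genes this gave 5 to 6, 6 to 8 and 6 to 6, and for other iron genes 32 to 39, 47 to 51 and 37 to 43. With the replicate number as a block there were 10381, 20965 and 17839 probes, and Slc40a1 differed by -0.47 in MI 3 days against sham. Signs turned for Steap3 in MI 3 days against sham without sham replicate 1 (-0.018, with 0.13 the highest value when 1 array was left out), and for Steap4 in MI 14 days against sham with the 75th percentile of tested probes (0.046), within slide 1 (0.28) and on leaving out sham replicate 4 (0.026) or, of MI 14 days, replicate 3 (0.052, with -0.11 the lowest value when 1 array was left out). They turned for Tfrc in MI 14 days against sham within slide 1 (0.29), and between the times with the processed signal (-0.016), normexp (-0.082), all its probes (-0.12) and without MI 14 days replicate 1 (-0.089, with 0.19 the highest value when 1 array was left out). Slc40a1 turned in MI 3 days against sham within slide 3 (0.24) and Fth1 with quantile normalization (0.17). Signal near background limits Steap1, Steap2 and Hamp and, among the other iron genes, Tfr2 and Cd163.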
